A study of Rattus norvegicus with 10 samples.

Results

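The genes described are those that move glutamate, glutamine and cystine across membranes or turn glutamate into glutamine. They were the plasma membrane carriers Slc1a1, Slc1a2 and Slc1a3, the vesicular carriers Slc17a6, Slc17a7 and Slc17a8, the enzyme Glul, the glutamine carrier Slc38a1 and the cystine/glutamate exchanger Slc7a11. An mRNA probe was taken as a member when the RefSeq accession printed for it in the scanner output belonged to one of these 9 genes. This gave 9 of the 15323 mRNA probes on the array, for 8 of the 9 genes, because Slc1a2 was represented by 2 RNAs and no mRNA probe was matched to Glul. Probes had to be well above background on 5 or more of the 10 arrays to be kept, and 8 probes for 7 genes passed this filter. The probe of Slc17a7 did not.

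Total RNA of the lumbar enlargement of the spinal cord was hybridized to one-colour lncRNA and mRNA arrays, with 1 array per rat. The 5 rats of the morphine tolerance group (MT, rats 1 to 5) were given intrathecal morphine, 10 μg in 10 μl per injection with 2 injections a day over 7 days, and the 5 rats of the normal saline group (NS, rats 6 to 10) were given 10 μl of saline on the same schedule. All were adult male Sprague Dawley rats of 240 to 260 g, both groups were injected once more on the morning of tissue collection, and no age beyond adult was given in the sources used here. The comparison asked which RNAs differ in the lumbar cord of rats made tolerant to morphine and injected again that morning. The response to the last dose and the state of tolerance cannot be told apart in it.

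Glutamate released by primary afferents and by excitatory interneurons of the cord is cleared mainly by astrocytes through sodium-driven carriers of the Slc1 family. Astrocytes convert it to glutamine with glutamine synthetase, the product of Glul, and neurons take glutamine up, turn it back into glutamate and load it into vesicles through Slc17 carriers. Slc7a11 encodes xCT, the light chain of a plasma membrane exchanger that releases glutamate in return for cystine, the precursor of cysteine for glutathione. Loss of spinal glutamate uptake has been studied as a part of morphine tolerance.

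Values are log2 intensities after quantile normalization, on which a difference of 1 is a change by a factor of 2, and each probe is compared with itself only. The median intensity of an array before normalization was 74.4 to 89.6 in the MT group and 29.8 to 101 in the NS group, and 81.1% to 83.9% and 58.6% to 79.6% of spots were well above background. Arrays that shared a scan time were taken as 1 slide: slide 1 held MT rats 1, 3, 4 and 5, slide 2 held MT rat 2 with NS rats 6, 7 and 10, and slide 3 held NS rats 8 and 9, the 2 dimmest arrays. Slide and group were therefore largely confounded, and slide 2 was the one slide with both groups. The neuron, astrocyte and oligodendrocyte markers matched on the array (7, 8 and 6 genes) were all kept by the filter, as was Hoxd10, the one matched marker of lumbar position. Hoxd10 ranged over 10.27 to 12.13 in MT and over 10.83 to 11.86 in NS, with a difference of 0.27 over all rats and of 0.68 within slide 2, and its part in the results was not tested.

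Of the member RNAs, Slc7a11 was lower in the MT group and passed the adjusted threshold, and none of the other 7 RNAs did. By the linear models of limma with Benjamini-Hochberg adjustment, 1 of the 8 member RNAs had an adjusted p below 0.05, against 0.197% of all 20284 RNAs tested (0.123% lower and 0.0739% higher in MT). The same RNA was the 1 member with a linear fold above 1.5 and an unadjusted p below 0.05, criteria that 2.74% of all RNAs met, 1.74% (353) higher and 0.996% (202) lower in MT, a split of 708 and 112 with scaling by the 75th percentile. The groups did not overlap for 2 member RNAs, Slc7a11 and Slc1a1, against 5.64% of all RNAs (3.29% lower and 2.35% higher in MT). Over the 8 RNAs, 4 were higher and 4 lower in MT, with a median log2 fold change of -0.01 beside 0.00 over all RNAs.

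**Figure D1:**
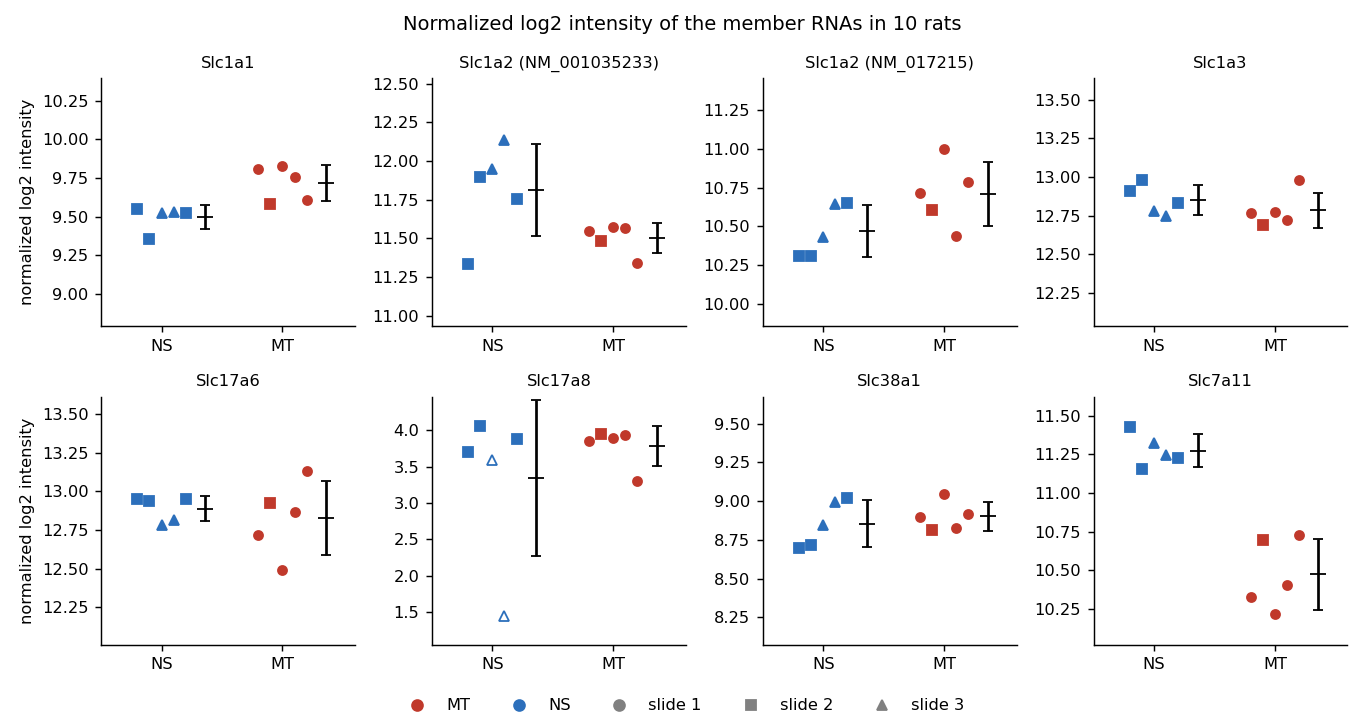
Normalized log2 intensity (y axis) of the 8 member RNAs kept by the filter, in 5 NS and 5 MT rats. Each point is a rat, its shape gives the slide, open points were not well above background, and the bars are the mean ± SD of each group. The axes differ between panels but span the same 1.6 log2 units, except for Slc17a8, whose range is wider. The MT points of Slc7a11 lie at 10.21 to 10.72, below all NS points at 11.15 to 11.43.

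Slc7a11 was the member with the largest difference relative to its error. Its normalized log2 intensity was 10.32, 10.70, 10.21, 10.40 and 10.72 in MT rats 1 to 5 and 11.43, 11.15, 11.32, 11.24 and 11.22 in NS rats 6 to 10. The lowest NS rat was above the highest MT rat, and the NS rats were closer together (11.27 ± 0.10, SD, n = 5) than the MT rats (10.47 ± 0.23, SD, n = 5). The log2 fold change was -0.80 (SE 0.11, 95% interval -1.05 to -0.55), a level 1.74 times lower in MT, with an adjusted p of 0.0353 in limma. By an exact two-sided permutation test over the 252 assignments of 5 and 5 rats, p was 0.00794, the smallest possible for these group sizes. The test takes all rats as exchangeable and ignores the slide. Groups of 5 that do not overlap always give this p, and 5.64% of all RNAs had groups that did not overlap. Among all 20284 RNAs tested, Slc7a11 ranked 16 by p, and 11 among the 10188 that were lower in MT. In tissue RNA, fewer cells that express a gene and less of its RNA per cell cannot be told apart.

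The spots of Slc7a11 were well above background on all 10 arrays, and none was saturated or marked as an outlier. Before normalization its intensities were 1466, 1799, 1206, 1729 and 1733 in the MT rats and 3707, 2480, 2104, 1383 and 2242 in the NS rats, so the groups overlapped through NS rat 9, whose array had the lowest median intensity. After normalization that rat was at 11.24, within the range of the other NS rats. The separation of the groups thus rested on scaling for rat 9 and was present in the raw intensities for the other 4 NS rats, which all exceeded the highest MT rat.

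Within slide 2, the single MT rat was at 10.70 and the 3 NS rats at 11.15 to 11.43, a difference of -0.57. The NS rats of slide 3 averaged 11.28 and those of slide 2 averaged 11.27, while the MT rats of slide 1 averaged 10.42. With the slide as a fixed block, which takes the group difference from slide 2, the log2 fold change was -0.57 with an adjusted p of 1.00 in limma. With the slide as a random block it was -0.69 (adjusted p = 0.321), and without the 2 arrays of slide 3 it was -0.79 (adjusted p = 0.145). Slc7a11 was lower in MT under all 22 alternatives. The fold and unadjusted p criteria were met in 21 of them, all but the fixed block, and the adjusted p stayed below 0.05 in 10, ranging from 0.0161 to 1.00 over the 22. Leaving out any one of MT rats 1, 3, 4 and 5 or NS rats 6, 7, 8 and 9 brought the adjusted p to between 0.0558 and 0.163, with log2 fold changes from -0.86 to -0.74.

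**Figure D2:**
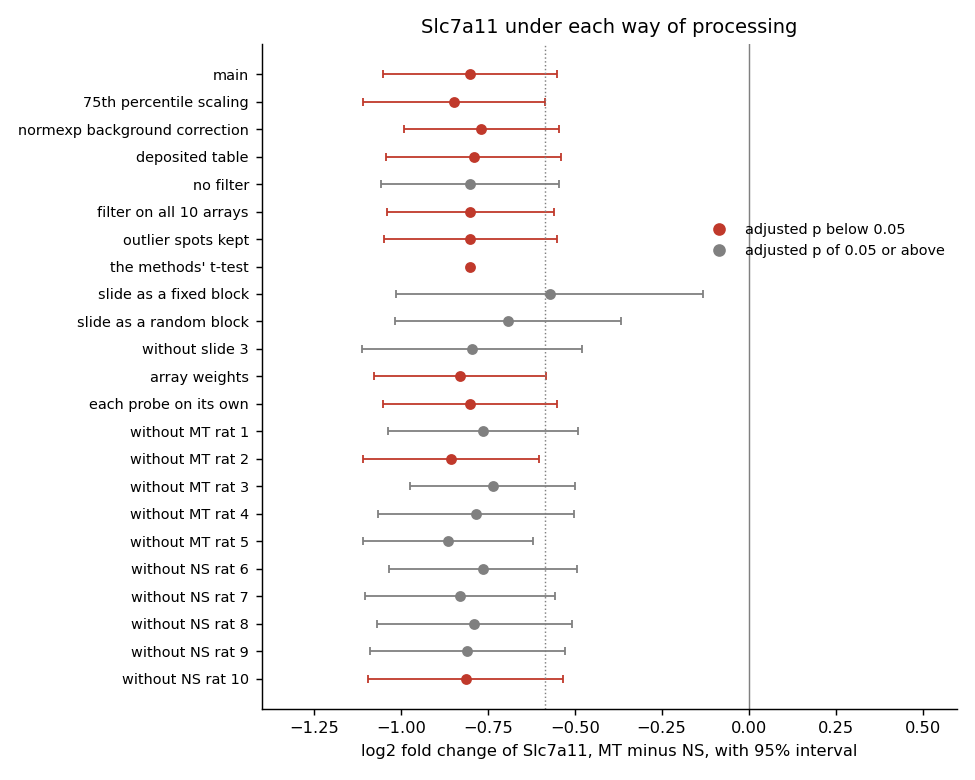
Log2 fold change of Slc7a11, MT minus NS (x axis), under the main processing and 22 alternatives (y axis), with the 95% interval of limma, which the methods' t-test does not have. Red points had an adjusted p below 0.05 and grey points did not, and the dotted line marks a fold of 1.5. All values lie between -0.86 and -0.57, and the fixed block is the one point to the right of the dotted line.

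Marker lists of the cells in the tissue were read beside this result. Slc7a11 is known from astrocytes and meningeal cells as well as from activated microglia. Of the 9 astrocyte RNAs kept (8 of 10 genes), 2 were higher and 7 lower in MT. All 9 were short of both criteria, and their mean log2 intensity per rat ranged over 14.46 to 14.55 in MT and over 14.44 to 14.66 in NS. The 4 meningeal fibroblast RNAs averaged 9.82 to 10.09 in MT and 8.96 to 10.39 in NS, and 3 of them were higher in MT. Their list mean was higher in MT by 0.25 over all rats and by 0.33 within slide 2, while the astrocyte mean differed by -0.02 and -0.04. The 6 microglial RNAs, 1 for each of the 6 genes listed, were all lower in MT, with a mean of 11.02 to 11.70 against 11.49 to 12.03. The difference was -0.45 over all rats and -0.49 within slide 2. Of the 6, 1 met the fold and p criteria, against 0.996% of all RNAs in this direction. The list was chosen to mark the cell type and not its activation. Fewer microglia and less of these RNAs per cell cannot be told apart. Of the neutrophil list, 3 of 6 genes had a matched probe and 2 were kept, and both were higher in MT (mean 6.41 to 7.06 against 5.15 to 6.03). Their mean was higher by 1.00 over all rats and by 1.30 within slide 2. Of these 2 RNAs, 1 met the fold and p criteria, against 1.74% of all RNAs in this direction. The part of these cells in the Slc7a11 difference was not tested.

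The 3 mRNAs whose values followed Slc7a11 most closely over the 10 arrays, out of 12456 mRNAs compared, were Mpv17l2 (Pearson r = 0.984), Mtus1 (0.963) and Zgpat (0.959). Their log2 fold changes were -0.23, -0.33 and -0.28, all smaller in size than that of Slc7a11. The arrays share group and slide, so these values describe likeness and carry no test.

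Among the plasma membrane glutamate carriers, Slc1a1 encodes EAAC1 (EAAT3), the carrier of neurons. Its normalized log2 intensity was 9.81, 9.58, 9.83, 9.75 and 9.61 in MT rats 1 to 5 and 9.55, 9.36, 9.53, 9.53 and 9.52 in NS rats 6 to 10. All 5 MT rats were above all 5 NS rats, a pattern that 2.35% of all RNAs showed in this direction, although MT rat 2 exceeded NS rat 6, the highest of its slide, by little. The log2 fold change was 0.22 (SE 0.07, 95% interval 0.05 to 0.39), a fold of 1.16. The exact two-sided permutation p was 0.00794, which follows from the separation of the groups and ignores the slide. Slc1a1 did not pass the adjusted threshold (adjusted p = 0.209 in limma). An unadjusted p below 0.05 was found for 3 of the 8 member RNAs and for 16.4% of all RNAs. The difference was 0.10 within slide 2 and 0.24 without slide 3. With the slide as a random block it was 0.16 (adjusted p = 0.795 in limma).

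Marker lists of neurons were read beside Slc1a1. The 7 neuron RNAs kept (7 of 8 genes) averaged 12.56 to 12.69 in MT and 12.32 to 12.55 in NS. The list mean was higher by 0.17 both over all rats and within slide 2. Of the 7, 5 were higher and 2 lower in MT, and none was past either criterion. The 4 motor neuron RNAs (4 of 6 genes) were all higher in MT, none past either criterion, with means of 10.53 to 11.40 against 10.36 to 11.22, a difference of 0.29 over all rats and of 0.59 within slide 2. Of the 6 dorsal root ganglion RNAs kept (4 of 6 genes), 5 were higher in MT. The fold and p criteria were met by 3 of them, against 1.74% of all RNAs in this direction, and RNAs of the same gene are not independent. The means were 7.27 to 7.92 against 6.97 to 7.87, a difference of 0.36 over all rats and of 0.35 within slide 2. The part of these cells in the values of Slc1a1 was not tested.

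Slc1a2 encodes GLT-1 (EAAT2), the main glutamate carrier of astrocytes, and its 2 RNAs differed in direction. NM_001035233 was at 11.55, 11.48, 11.57, 11.57 and 11.34 in MT rats 1 to 5 and at 11.33, 11.89, 11.95, 12.13 and 11.76 in NS rats 6 to 10. NS rats 7 to 10 were above every MT rat, while NS rat 6 was below all of them. This gave a log2 fold change of -0.31 (SE 0.14, 95% interval -0.61 to -0.01; adjusted p = 0.296 in limma; exact permutation p = 0.0714), and -0.18 within slide 2.

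The other RNA of the gene, NM_017215, was at 10.71, 10.60, 11.001, 10.44 and 10.78 in the MT rats and at 10.31, 10.31, 10.43, 10.64 and 10.65 in the NS rats. MT rats 1, 3 and 5 were above all NS rats and the other two lay within the NS range. This gave a log2 fold change of 0.24 (SE 0.12, 95% interval -0.03 to 0.50; adjusted p = 0.347 in limma; exact permutation p = 0.0794), and 0.18 within slide 2. Neither RNA passed the adjusted threshold, and the mean of both gave a log2 fold change of -0.04 (SE 0.11, 95% interval -0.27 to 0.20; adjusted p = 0.887 in limma).

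Because the fold changes of the 2 Slc1a2 RNAs had opposite signs, the difference between the RNAs was read on each array, where a shift common to the whole array cancels. Each RNA was read by 1 probe, so a difference between probes is not shown to be one between transcripts. NM_017215 minus NM_001035233 was -0.84, -0.88, -0.57, -1.13 and -0.56 in MT rats 1 to 5 and -1.02, -1.58, -1.51, -1.49 and -1.11 in NS rats 6 to 10. The groups overlapped through MT rat 4 and NS rats 6 and 10. The mean was -0.79 ± 0.24 (SD, n = 5) in MT and -1.34 ± 0.26 (SD, n = 5) in NS, a shift of 0.55, and on slide 2 the MT rat was at -0.88 and the NS rats at -1.58 to -1.02. This difference was chosen after the values were seen and has no test, and the sign within a group carries no order of abundance, since 2 probes bind with different strength. The 3 mRNAs most like the mean of both RNAs over the 10 arrays were Slc4a2 (Pearson r = 0.949), Nmu (0.948) and Nme7 (0.930), given as a description.

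**Figure D3:**
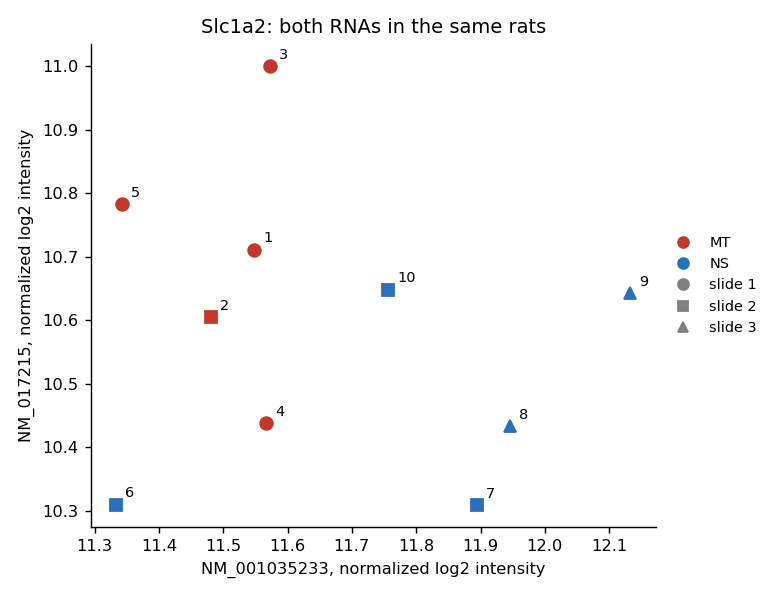
Normalized log2 intensity of the 2 Slc1a2 RNAs in the same 10 rats, NM_001035233 on the x axis and NM_017215 on the y axis. Colour gives the group, shape the slide and the number the rat. The MT rats lie at 11.34 to 11.57 on the x axis, and 4 of the 5 NS rats lie to the right of them at 11.76 to 12.13, with NS rat 6 at 11.33.

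Slc1a3 encodes GLAST (EAAT1), the other astrocyte carrier. It was at 12.77, 12.69, 12.77, 12.72 and 12.98 in the MT rats and at 12.91, 12.98, 12.78, 12.75 and 12.83 in the NS rats. These ranges overlapped for most rats, and the log2 fold change was -0.06 (SE 0.08, 95% interval -0.24 to 0.11; adjusted p = 0.699 in limma). Within slide 2 the MT rat was below all 3 NS rats, a difference of -0.22 from their mean. The mean of the Slc1a2 RNAs minus Slc1a3 on the same array was -1.68 ± 0.16 (SD, n = 5) in MT and -1.71 ± 0.28 (SD, n = 5) in NS. The groups differed by 0.03 in this quantity, with an exact two-sided permutation p of 0.841, and the difference was -0.25 or 0.30 when one or the other Slc1a2 RNA stood for the gene.

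Among the vesicular carriers, Slc17a6 encodes VGLUT2, which loads glutamate into vesicles of most excitatory interneurons of the cord. Its normalized log2 intensity was 12.72, 12.93, 12.49, 12.86 and 13.13 in MT rats 1 to 5 and 12.95, 12.94, 12.78, 12.81 and 12.95 in NS rats 6 to 10. The MT rats spread around the NS rats on both sides, with an SD of 0.24 against 0.08. The log2 fold change was -0.06 (SE 0.11, 95% interval -0.31 to 0.19; adjusted p = 0.807 in limma), and it turned to 0.02 without MT rat 3. The part of the neuronal lists given above in the values of Slc17a6 was not tested. The mRNAs most like Slc17a6 over the 10 arrays were Agtr1a (Pearson r = 0.974), Plppr4 (0.966) and Pnkd (0.965), again as a description.

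Slc17a8 encodes VGLUT3, found in a sparse set of dorsal horn and sensory neurons, and was measured close to background. It was well above background in all 5 MT rats and in 3 of the 5 NS rats. The MT rats were at 3.85, 3.95, 3.90, 3.94 and 3.30 and the NS rats at 3.70, 4.06, 3.59, 1.45 and 3.88, where NS rats 8 and 9 on slide 3, at 3.59 and 1.45, were not well above background. Its log2 fold change was 0.45 (SE 0.45, 95% interval -0.54 to 1.44; adjusted p = 0.635 in limma), and it was -0.10 without slide 3, -0.02 without NS rat 9 and 0.07 within slide 2. The direction over all rats thus changed with NS rat 9 left out. Slc17a7 encodes VGLUT1, the vesicular carrier of cortical neurons and of large myelinated afferents, whose cell bodies lie outside the cord. Its probe was not well above background on any of the 10 arrays and has no fold change here.

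The step from glutamate to glutamine could not be read, since Glul had no matched mRNA probe. Slc38a1 encodes SNAT1, a sodium-coupled carrier that brings glutamine into neurons. It was at 8.90, 8.81, 9.05, 8.83 and 8.92 in the MT rats and at 8.70, 8.72, 8.85, 8.99 and 9.02 in the NS rats. The groups overlapped, and the log2 fold change was 0.05 (SE 0.09, 95% interval -0.15 to 0.24; adjusted p = 0.811 in limma), turning to -0.01 after another background correction. The upper bound of 0.24 is a fold well short of 1.5.

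The members were then set beside 39 other genes of glutamate and glutamine handling, of which 34 had a matched mRNA probe and were kept, with 1 RNA each. None of the 34 RNAs passed the adjusted threshold or the fold and p criteria in limma, and the smallest adjusted p was 0.239. Over all RNAs the shares were 0.197% and 2.74%, so a list of this size would hold few calls or none at those rates. At an unadjusted p below 0.05 there were 3 of 34, all higher in MT, against 16.4% of all RNAs, and by the methods' t-test none met the criteria or the adjusted threshold either. In all, 14 RNAs were higher and 20 lower in MT, with a median log2 fold change of -0.03. The groups overlapped for every one of them, as they did for all but 5.64% of all RNAs.

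The other plasma membrane carriers (7 RNAs, 2 higher and 5 lower) included the direct partners of the members. Slc3a2 encodes the heavy chain with which xCT forms the exchanger, and was at 10.86 to 11.62 in MT and 11.12 to 11.46 in NS, with a log2 fold change of -0.09 (SE 0.14, adjusted p = 0.779 in limma). It was -0.20 without MT rat 3 and -0.01 without MT rat 4. The groups overlapped for the heavy chain, as for most RNAs. For the light chain Slc7a11 they did not, as for 5.64% of all RNAs. Slc38a3 encodes SNAT3, through which astrocytes release glutamine, and had a log2 fold change of -0.10 (SE 0.10, adjusted p = 0.624 in limma). Slc38a2, which encodes the glutamine carrier SNAT2, had the lowest p of this group, with 13.03 to 13.79 in MT against 12.77 to 13.58 in NS, a log2 fold change of 0.36 (SE 0.18, adjusted p = 0.355 in limma).

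The enzymes of glutamate and glutamine (11 RNAs, 2 higher and 9 lower) had log2 fold changes from -0.18 to 0.12. Pc, pyruvate carboxylase, which replenishes the carbon of glutamate in astrocytes, had the lowest p among the enzymes, with a log2 fold change of -0.18 (SE 0.09, adjusted p = 0.345 in limma) that was 0.06 within slide 2. Of the mitochondrial carriers (2 RNAs), the glutamate carrier Slc25a18 was at -0.11 (SE 0.16) over all rats and at 0.12 within slide 2. In the GABA branch (4 RNAs, 2 higher and 2 lower), Gad1, a glutamate decarboxylase, was at -0.13 (SE 0.09, adjusted p = 0.473 in limma).

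The genes of glutathione and its control (8 RNAs, 6 higher and 2 lower) included enzymes that make and recycle glutathione, and Nrf2 with its partner and targets. Keap1, which holds the antioxidant factor Nrf2 in check, was at 7.95 to 8.78 in MT and 7.59 to 8.01 in NS, and 4 of 5 MT rats were above all NS rats. Its log2 fold change was 0.44 (SE 0.16, adjusted p = 0.239 in limma). Gsr, glutathione reductase, had a log2 fold change of 0.27 (SE 0.12, adjusted p = 0.299 in limma). The remaining RNA of the list at an unadjusted p below 0.05 was Arl6ip5, which encodes a binding partner of the carrier EAAC1, with a log2 fold change of 0.30 (SE 0.12, adjusted p = 0.254 in limma). On slide 2, with its single MT rat, these 3 differences were -0.02, 0.03 and -0.13, and that of Slc7a11 was -0.57. With 1 MT rat on that slide, no test compared these values. Over all rats, the RNAs of the glutathione group other than Keap1 and Gsr had log2 fold changes from -0.09 to 0.14. These included Nrf2 and targets of it. The part of this group in the Slc7a11 difference was not tested.

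**Figure D4:**
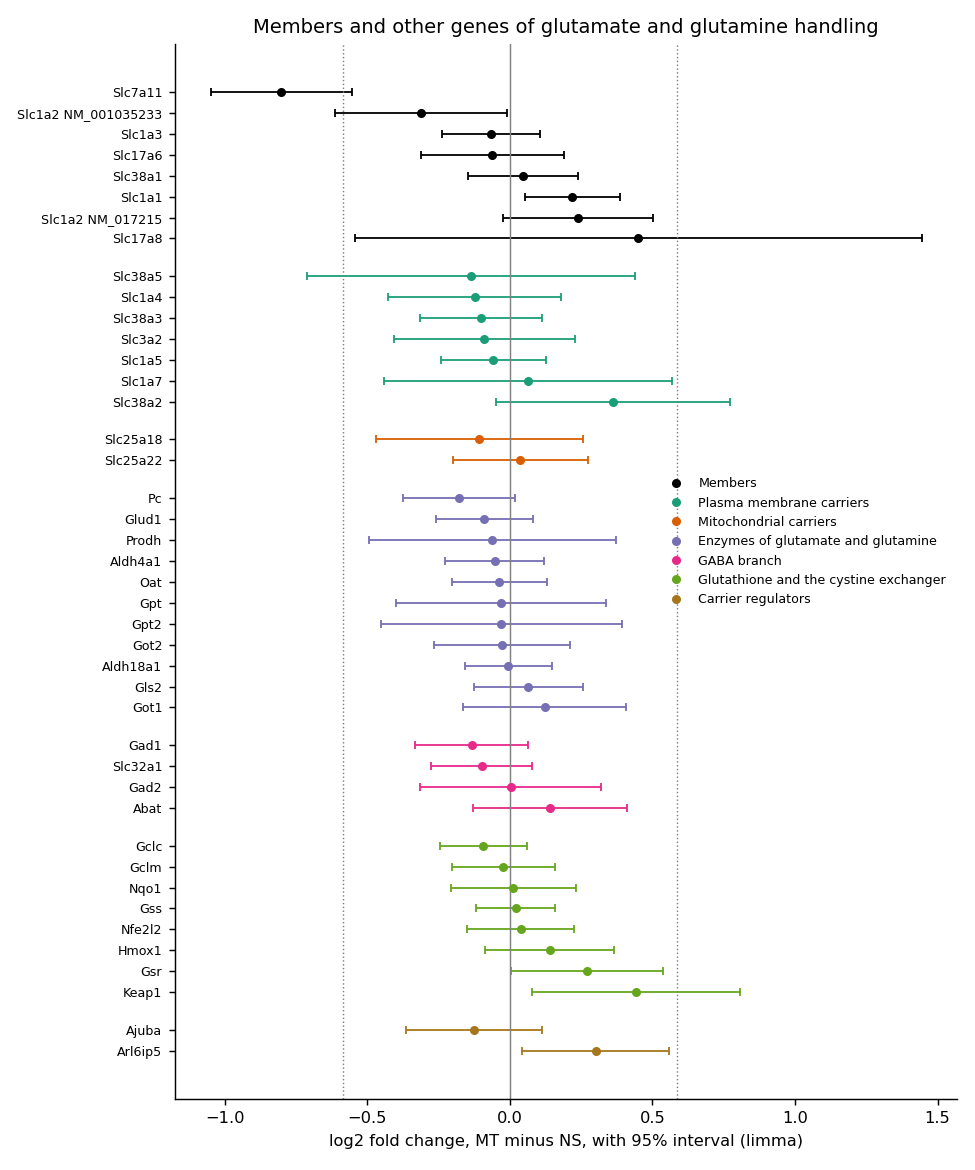
Log2 fold change, MT minus NS (x axis), with the 95% interval of limma, for the 8 member RNAs and the 34 RNAs of the wider list (y axis, coloured by role). The dotted lines mark a linear fold of 1.5. Slc7a11, at -0.80, is the one point left of the lower line, and no point lies right of the upper one.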

How the data were processed

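RNA of 5 MT and 5 NS rats was labelled by random priming and hybridized to 1 array each. Spots were quantified by the authors with Feature Extraction 11.0.1.1, and the deposited scanner output holds a background-subtracted linear intensity per spot and flags that mark outliers, saturation and signal well above background. They also deposited a table of quantile-normalized log2 values, used as an alternative, of whose 24529 entries 24484 matched a probe. On each array it correlated with the values used here at r from 0.996 to 1.000 over probes.

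The intensities (lowest 1.71, floor 1) were converted to log2 and quantile normalized. R 4.3.3 was used with limma 3.58.1, and version 1.17.8 of data.table for reading. Spots marked as outliers were dropped before the spots of an RNA were averaged. To be kept, a probe needed signal well above background at more than 50% of its spots on 5 arrays or more. This left 20286 RNAs, of which 20284 had values in both groups. Accessions were paired with symbols through the RefSeq annotation of GRCr8, which named 14274 of 15323 mRNA probes. No coordinates are given, since the array was designed on another build.

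Groups were compared with limma (linear models, empirical Bayes moderation, no covariate), with Benjamini-Hochberg adjustment over all RNAs tested and two-sided exact permutation tests for single values. The fold criterion was read as a linear fold above 1.5. The member genes and lists were chosen with earlier results of these data known. Of the wider list, the gene with the lowest p in each group was named, with Slc3a2 and Slc38a3 as partners of members, and Gsr was named after its values were seen. One further gene of that list is not reported here and enters none of its counts. Likeness was Pearson r over the 10 arrays, among mRNAs kept. The alternatives were 75th percentile scaling, normexp background correction (offset 50), the deposited table, no filter or a filter on all 10 arrays, outlier spots kept, the methods' t-test, a slide block (fixed, then random), leaving out slide 3, array weights, single probes and leaving out each rat. On simulated arrays with the same group sizes and 20221 RNAs, 144 of 200 RNAs changed by a log2 fold of 1 were recovered, with 4 unchanged RNAs called. The simulation had independent noise for each RNA, the same spread in both groups and no slide effect. Its counts therefore do not cover the confounding of slide and group in the real arrays. The number of arrays limits the precision. Plots came from Python 3.11.15 and matplotlib 3.10.9.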

Additional observations from a re-analysis of the deposited data

Results flagged for a closer look

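In 4 of 36 groups of 5 rats checked over the RNAs named, 1 rat lay far from the other 4, where chance alone gives about 1 group in 20. For Slc1a1, NS rat 7 was at 9.36 while the other NS rats were at 9.52 to 9.55, and its gap took up 0.882 of the range of the group. For Slc1a3, MT rat 5 was at 12.98, above 12.69 to 12.77 in the other MT rats (0.718 of the range). For Slc17a8, MT rat 5 was at 3.30, below 3.85 to 3.95 in the other MT rats (0.852 of the range), and NS rat 9, on a dim array where the spot was not well above background, was at 1.45 (0.818 of the range).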

How the results depend on the processing

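The count of member RNAs past the adjusted threshold fell from 1 to 0 with no filter on dim probes, with slide as a block, fixed or random, and without slide 3, and ranged from 0 to 1 when a rat was left out. The log2 fold change of Slc7a11 in those settings was -0.80, -0.57, -0.69 and -0.79, and -0.86 to -0.74 over the rats left out. Under the fixed block 0 members met the fold and p criteria. The 34 RNAs of the wider list gave 0 calls under every alternative. Over all RNAs, the count past the adjusted threshold went from 40 to between 0 and 183, and the count meeting the criteria from 555 to between 201 and 912. Scaling by the 75th percentile moved the median of all RNAs to 0.07. The following changes of direction concerned values that did not pass the adjusted threshold. With the mean of both Slc1a2 RNAs in place of NM_017215, an alternative added after seeing the data, the value was -0.036. NM_017215 on its own was higher in MT under every other alternative. Slc38a1 went to -0.0080 with normexp. Over the rats left out, Slc17a6 ranged from -0.14 to 0.023, Slc17a8 from -0.022 to 0.63, Slc25a18 from -0.18 to 0.051 and Slc1a2 minus Slc1a3 from -0.065 to 0.12. The last was -0.25 with NM_001035233 as Slc1a2, also added after seeing the data. With the fixed block, Slc25a18 was 0.12, Pc 0.065, Arl6ip5 -0.13 and Keap1 -0.022, and with the random block Slc25a18 was 0.0034. Without slide 3, Slc17a8 was -0.096, Slc3a2 0.016 and Slc38a3 0.0026. The causes were not tested. Slc17a6 minus Slc17a7 and a difference with Glul, planned within an array, were not run, because Slc17a7 was not above background and Glul had no matched probe. Slc17a8 did not pass the filter on all 10 arrays and has no value there. No paired analysis was possible because the groups share no rat number. Dim signal limits Slc17a7 and Slc17a8 most.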
